A study of Homo sapiens with 2 samples.

Results

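Caveolae are small flask-shaped pits of the plasma membrane. Caveolins insert into the inner leaflet and assemble into oligomers, cavins coat these from the cytosol, and EHD2 and PACSIN2 sit at the narrow neck where the pit joins the cell surface. In Ewing sarcoma, CAV1 has been described as a gene that the fusion factor EWS/FLI1 activates.

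The 7 genes described here, of 23352 in the gene tables, are the caveolins CAV1 and CAV2, the cavins PTRF, SDPR and PRKCDBP (now named CAVIN1, CAVIN2 and CAVIN3), EHD2 and PACSIN2. They were taken by symbol and are listed in the tables of both libraries. The set was selected on gene family with the log2 folds between these 2 libraries already known, so those values are a description with no test.

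Both groups are A673, an established Ewing sarcoma line, carrying a stably integrated short hairpin RNA: one library has the title 813, for the RUNX3 hairpin sh813, and the other the title NT, for the non-target hairpin. Cells had received lentivirus, harvested from HEK 293T cells after 72 hours, with 6 µg/mL polybrene, and were then selected for 6 days in 0.4 µg/mL puromycin. Each group is 1 poly(A) library from a pool of transduced cells with 1 hairpin, so no difference has a replicate check. The shRNA characteristic of each library names the other hairpin than its title does. Libraries are therefore called by title, and following the characteristics instead would turn every direction round.

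RUNX3, the targeted transcription factor, had 387 read pairs in the 813-titled library and 1391 in the NT-titled library (15.8 and 59.9 CPM), which goes with the titles. The libraries held 23342660 and 24326135 pairs over all genes. CPM is pairs scaled to a TMM-normalised library size, log2 folds are the 813-titled library over the NT-titled library, and ranges in parentheses are exact 95% binomial intervals that cover counting error only. Genes reaching 1 CPM in either library count as measured. A call, higher or lower, needed a 2-fold difference whose whole interval lay past 1.5-fold. All 12 listed Ewing markers were measured, with 0 called higher, 2 called lower and a median log2 fold of 0.14. Of them 8 had a log2 fold above 0 and 4 under 0. Over all measured genes 8.13% were called higher and 3.48% lower. Nothing is read from the counts of calls in this or the other marker lists. CD99, at 4026 and 3808 CPM, and PRKCB, at 282 and 254 CPM, were abundant in both libraries. NR0B1 and NKX2-2 were the 2 called lower, at -1.11 and -1.43 on the log2 scale. The NR0B1 call ended at -0.97 with plain total counts, -0.98 without the 20 most abundant genes in the library size, -0.98 with the authors' RPKM and -0.75 with a smooth trend on transcript GC content and length removed. Markers of other cell types known for caveolae differed in level, with the endothelial and adipocyte lists low in both libraries. Of 9 endothelial genes 4 were measured, with a summed RPKM of 3.12 in the 813-titled and 3.80 in the NT-titled library, TEK at 0 pairs in both, and KDR, a VEGF receptor, called higher at 52 and 5 pairs, although at 2.13 and 0.215 CPM it was measured only through the 813-titled library and did not reach a limit of 5 CPM. Of 7 adipocyte genes 1 was measured, with sums of 2.19 and 2.58 RPKM. Smooth muscle genes (5 of 7 measured, MYOCD at 0) summed to 59.6 and 79.4 RPKM, with TAGLN called higher and SMTN lower. The SMTN call ended at -0.96 with that trend removed. Most of both sums was ACTA2, at 37.8 RPKM in the 813-titled and 63.0 RPKM in the NT-titled library. Its log2 fold of -0.87 was not called. In the same order MYH11 was low at 0.175 and 0.205 RPKM, CNN1 at 0.518 and 0.359 RPKM, and DES at 0.102 and 0.239 RPKM. Fibroblast genes (6 of 7 measured) summed to 585 and 436 RPKM, with 0 called. Most of that sum was COL1A2, at 390 RPKM in the 813-titled and 296 RPKM in the NT-titled library. In the same order DCN was low at 1.62 and 1.84 RPKM, LUM at 0.513 and 0.344 RPKM, and FAP at 0.0236 and 0.103 RPKM. COL1A1, THY1 and PDGFRB lay between these and COL1A2. The part of the markers of other cell types in the results below was not tested.

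PRKCDBP and EHD2 were called higher in the 813-titled library, at 5.97-fold and 2.82-fold. CAV1, CAV2, PTRF and PACSIN2 had ratios from 0.905 to 1.14, and SDPR was near the limit of detection. In bulk RNA, more cells with a transcript and more of it per cell cannot be told apart. Of the 6 measured, 2 were called higher and 0 lower, where 8.13% of all 12254 measured genes were called higher and 3.48% lower. Since PRKCDBP passed the 1 CPM limit only through the library in which it was high, and the set was proposed with these values known, nothing is read from that count. The median log2 fold was 0.09 for the 6 genes and 0.01 for all measured genes.

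**Figure D1:**
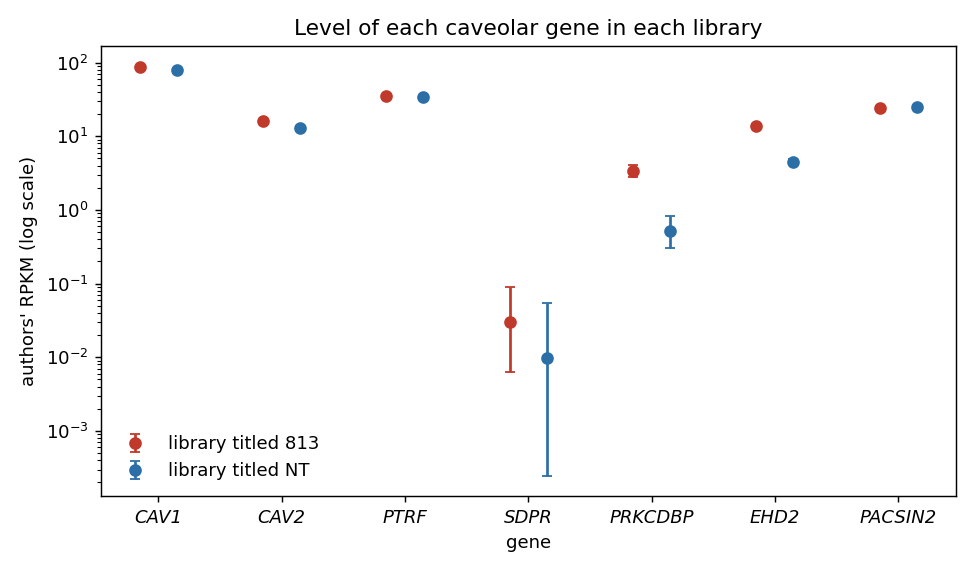
Level of each of the 7 genes in each library, as the authors' RPKM on a log axis, with the 813-titled library left of the NT-titled library; bars are exact 95% Poisson intervals for counting error. CAV1 is at 87.1 and 80.4 RPKM and SDPR at 0.0303 and 0.00974 RPKM, and the gap between libraries is visible for PRKCDBP and EHD2.

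Levels per length (RPKM) ran in the same order in both libraries. CAV1 was highest, then PTRF, PACSIN2, CAV2, EHD2, PRKCDBP and SDPR. In the 813-titled library CAV2 and EHD2 were close, at 16.1 RPKM (15.3 to 16.9) and 14.0 RPKM (13.3 to 14.7), without overlap of the counting intervals. In the NT-titled library the same 2 genes lay apart, at 12.9 RPKM (12.2 to 13.6) and 4.54 RPKM (4.16 to 4.95). The counting intervals of other neighbours in the order did not overlap in either library. CAV1 alone made up 48.4% of the summed RPKM of the 7 genes in the 813-titled library and 51.2% in the NT-titled library. Among measured genes, 6.28% had a higher RPKM than CAV1 in the 813-titled library and 7.11% in the NT-titled library.

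CAV1 (chr7:116164839-116201239 in hg19), the caveolin that caveolae of non-muscle cells need, had 9690 pairs in the 813-titled library and 9285 in the NT-titled library. At 396 and 400 CPM its ratio was 0.990 (0.962 to 1.02), with a log2 fold of -0.01 (-0.06 to 0.03). The sign turns with the scaling: it was 0.12 with plain total counts and the authors' RPKM was 87.1 and 80.4. CAV2 (chr7:116139655-116148595), which forms hetero-oligomers with CAV1 and depends on it to leave the Golgi, had 1615 and 1347 pairs, or 66.0 and 58.0 CPM. Its log2 fold of 0.19 (0.08 to 0.29) was below the size of a call and was -0.10 with the GC and length trend removed.

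The caveolin genes lie 16243 bases apart on chromosome 7. CAV2 per CAV1 was 0.184 in the 813-titled library and 0.161 in the NT-titled library by RPKM. Such a ratio between genes of one library does not depend on the library size. Its log2 difference was 0.20, with a 95% interval from 0.09 to 0.31 for counting error on the log scale. The GC and length trend was not removed from this or any later ratio between the genes. TES, a LIM-domain protein of focal adhesions and the nearest measured gene on the CAV2 side at 240817 bases, had 937 and 369 pairs and was called higher with a log2 fold of 1.27 (1.09 to 1.45). This call ended at 0.94 with the GC and length trend removed. CAPZA2, a subunit of the actin capping protein and the nearest on the CAV1 side, had 352 and 562 pairs, at a log2 fold of -0.75 (-0.95 to -0.56). The caveolins thus lay between neighbours with folds of opposite sign.

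CAV1 promoter windows from RefSeq (GRCh38.p14, plus strand, 250 bases before to 50 after a start) are shown because RUNX factors bind the core TGTGGT or TGCGGT and EWS/FLI1 binds repeats of GGAA. Both were searched on both strands, and neither motif contains the other. Capitals mark the match.
CAV1 chr7:116524759-116525058: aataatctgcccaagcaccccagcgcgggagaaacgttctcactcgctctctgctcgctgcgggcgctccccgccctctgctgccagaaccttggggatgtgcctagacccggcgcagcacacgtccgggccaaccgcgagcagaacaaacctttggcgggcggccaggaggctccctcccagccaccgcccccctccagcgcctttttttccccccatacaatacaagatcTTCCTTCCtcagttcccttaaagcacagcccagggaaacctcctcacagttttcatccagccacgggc
CAV1 chr7:116526112-116526411: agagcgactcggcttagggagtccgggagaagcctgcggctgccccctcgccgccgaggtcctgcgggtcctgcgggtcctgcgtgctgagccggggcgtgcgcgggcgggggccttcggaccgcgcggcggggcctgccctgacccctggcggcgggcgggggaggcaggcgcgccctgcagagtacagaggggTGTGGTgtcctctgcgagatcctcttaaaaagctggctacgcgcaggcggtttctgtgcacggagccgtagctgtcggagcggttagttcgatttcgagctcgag
The first window holds GGAAGGAA on the minus strand at position 233, counted from its 5′ end, and so does an overlapping window that starts at base 116524786. The window at the downstream start holds TGTGGT at position 196. Of all 35116 RefSeq windows of this length, 3.67% hold GGAAGGAA and 19.6% hold a RUNX core. RefSeq windows were found for 5 of the 7 genes, CAV1, CAV2, SDPR, EHD2 and PACSIN2, and 3 of their 13 windows (23.1%) held a RUNX core, 1 each in CAV1, CAV2 and PACSIN2. These are matches of letters and not shown binding sites.

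PTRF (chr17:40554467-40575338), the cavin without which caveolae do not form, had 3879 pairs in the 813-titled library and 3886 in the NT-titled library. At 159 and 167 CPM its log2 fold was -0.08 (-0.14 to -0.01), and the sign turned to 0.06 with plain total counts. PTRF per CAV1 was 0.403 and 0.421 by RPKM, a log2 difference of -0.06 with an interval that includes 0 (-0.14 to 0.01). That interval does not cover the GC and length trend. With the trend removed the log2 folds were 0.18 for PTRF and -0.30 for CAV1, so their order turned. Its neighbours STAT3 and ATP6V0A1 had log2 folds of 0.27 and -0.28.

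SDPR (chr2:192699032-192712006), the cavin that helps to bend the membrane, had 3 pairs in the 813-titled library and 1 in the NT-titled library. The ratio was 2.85 with an interval from 0.229 to 149, and no difference was detectable at this depth. At 0.123 and 0.0431 CPM it was the only one of the 7 genes not measured by the 1 CPM limit.

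PRKCDBP (chr11:6340176-6341740), which binds protein kinase C delta and joins the coat through PTRF, had the widest gap. It had 107 pairs in the 813-titled library and 17 in the NT-titled library, or 4.37 and 0.732 CPM and 3.39 and 0.519 RPKM. The ratio was 5.97 (3.56 to 10.6) and the log2 fold 2.54 (1.83 to 3.41), and 0.588% of measured genes had a higher log2 fold. PRKCDBP was measured only through the 813-titled library, and the set was chosen with these folds known. This share and that of EHD2 below are therefore description only. PRKCDBP per PTRF was 0.0967 in the 813-titled library and 0.0153 in the NT-titled library by RPKM, a log2 difference of 2.66 (1.92 to 3.40). Across scalings its log2 fold ran from 2.53 to 2.68, and it was 3.08 with the GC and length trend removed. Even at its higher level it remained a small fraction of PTRF. Its nearest measured neighbour on one side, SMPD1, the lysosomal acid sphingomyelinase at 69903 bases, had 26797 and 12198 pairs and was also called higher, with a log2 fold of 1.06 (1.03 to 1.09). FAM160A2 on the other side had a log2 fold of -0.26. A GENCODE gene, AC068733.3, shares 426 identical bases with the PRKCDBP transcript, and without a stated strand setting reads of the 2 cannot be told apart.

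EHD2 (chr19:48216601-48246391), an ATPase that forms rings at the neck and holds caveolae at the cell surface, had 1527 pairs in the 813-titled library and 514 in the NT-titled library. At 62.4 and 22.1 CPM the ratio was 2.82 (2.55 to 3.12) and the log2 fold 1.49 (1.35 to 1.64), with 3.55% of measured genes higher. The call held under each scaling tried, with log2 folds from 1.48 to 1.63, and was 1.79 with the GC and length trend removed. Its neighbours on either side, GLTSCR1 at 10066 bases and GLTSCR2 at 2401 bases, had log2 folds of -0.35 (-0.47 to -0.23) and -0.25 (-0.31 to -0.20), opposite in sign. The RefSeq window of EHD2, the called gene with one, is shown in full and held neither motif.
EHD2 chr19:47713172-47713471, plus strand, GRCh38.p14: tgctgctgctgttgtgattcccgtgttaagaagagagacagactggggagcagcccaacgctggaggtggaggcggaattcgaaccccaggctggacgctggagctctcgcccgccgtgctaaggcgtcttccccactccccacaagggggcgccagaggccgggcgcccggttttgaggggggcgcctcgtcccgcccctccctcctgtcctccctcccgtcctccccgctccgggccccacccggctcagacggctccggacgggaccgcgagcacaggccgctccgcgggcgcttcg

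PACSIN2 (chr22:43265772-43411184), an F-BAR protein that curves the neck membrane, had 2613 pairs in the 813-titled library and 2740 in the NT-titled library. At 107 and 118 CPM its log2 fold was -0.14 (-0.22 to -0.07), and -0.01 with plain total counts. The RNAs of the 2 neck proteins therefore differed from each other, and protein was not measured. EHD2 per PACSIN2 was 0.573 in the 813-titled library and 0.184 in the NT-titled library by RPKM, a log2 difference of 1.64 (1.48 to 1.80). EHD2 per CAV1 was 0.161 and 0.0565, a log2 difference of 1.51 (1.36 to 1.66). With the GC and length trend removed the log2 folds of EHD2, PACSIN2 and CAV1 were 1.79, -0.07 and -0.30. PRKCDBP exceeded EHD2 in its difference by 1.08 on the log2 scale (0.33 to 1.84). ARFGAP3 and TTLL1, the genes on either side of PACSIN2, had log2 folds of 0.89 and -0.87.

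**Figure D2:**
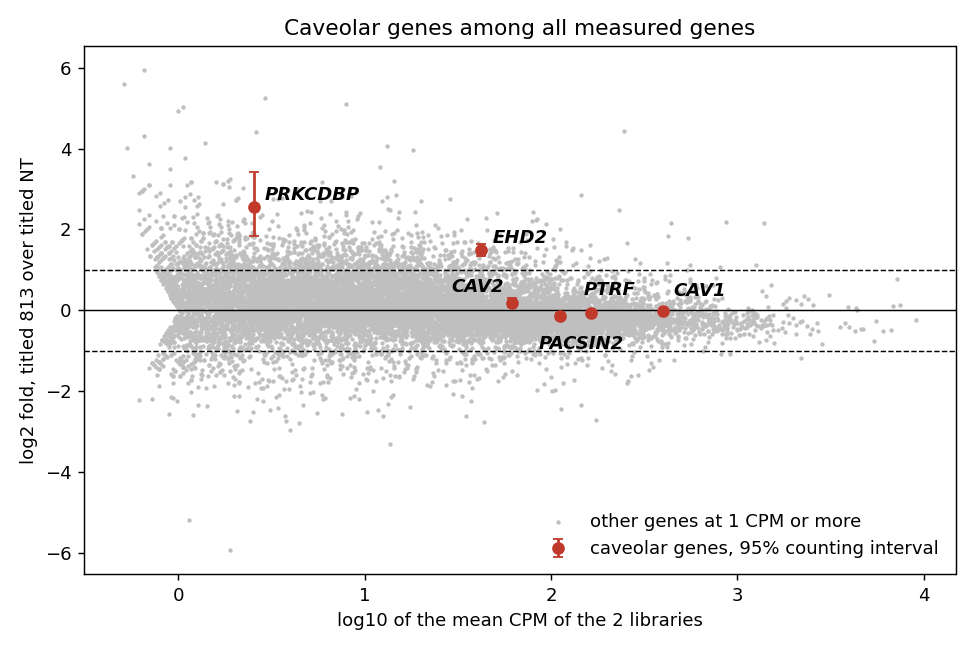
Log2 fold of the 813-titled library over the NT-titled library against log10 of the mean CPM, for the 6 measured caveolar genes (red, with 95% counting intervals) and all other measured genes (grey); dashed lines mark 2-fold. PRKCDBP at 2.54 and EHD2 at 1.49 lie above the upper line, and the other 4 lie between -0.14 and 0.19.

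The exon records were used to see whether each difference was shared along the gene. Both records of PRKCDBP were higher in the 813-titled library, with 114 and 15 reads in one (chr11:6340176-6340794) and 102 and 13 in the other (chr11:6341323-6341740). Their log2 folds were 2.77 and 2.80, above the 2.54 of the gene count. All 6 records of EHD2 were higher, with log2 folds from 1.12 at chr19:48239626-48239790 (264 and 115 reads) to 1.89 at chr19:48221766-48221863 (132 and 33 reads). The 3′ record of EHD2 (chr19:48244138-48246391) held 57.9% and 60.9% of its exon reads.

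Of the 35 exon records of the 7 genes, 33 had at least 50 reads over both libraries, and 0 of these departed from the rest of their gene by 2-fold with separate intervals. Over all genes, 0.42% of 93109 records did, so nothing is read from 0 among 33. The 2 records of PRKCDBP could only be compared with each other. At 15 and 13 reads in the NT-titled library, their intervals (1.75 to 4.18 and 1.72 to 4.34) could hide a 2-fold departure. Smaller slopes were present. The most 5′ record of CAV1 (chr7:116164839-116165146) had 610 and 732 reads and a log2 fold of -0.34 (-0.56 to -0.12), against 0.00 (-0.04 to 0.05) at its 3′ record (chr7:116199000-116201239, 16302 and 15417 reads). Some CAV1 and CAV2 records overlap, so a read can count in more than 1. In the same way, chosen after its values were seen, the 5′ record minus the 3′ record was -0.21 for CAV2, -0.20 for PTRF and -0.28 for PACSIN2, but 0.40 for EHD2 and 0.03 for PRKCDBP. The median of this difference over 8753 genes was -0.04, with quartiles of -0.26 and 0.16. The 5′ record of EHD2, at 80 and 21 reads, had a log2 fold of 1.80 (0.85 to 2.99), against 1.41 (1.23 to 1.60) at its 3′ record. Counting intervals of the 2 end records were apart for CAV1 and overlapped for the other measured caveolar genes. The EHD2 difference was opposite in sign to those of CAV1, CAV2, PTRF and PACSIN2, but its sign is not settled at these counts. The part of read coverage in the EHD2 fold was not tested.

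**Figure D3:**
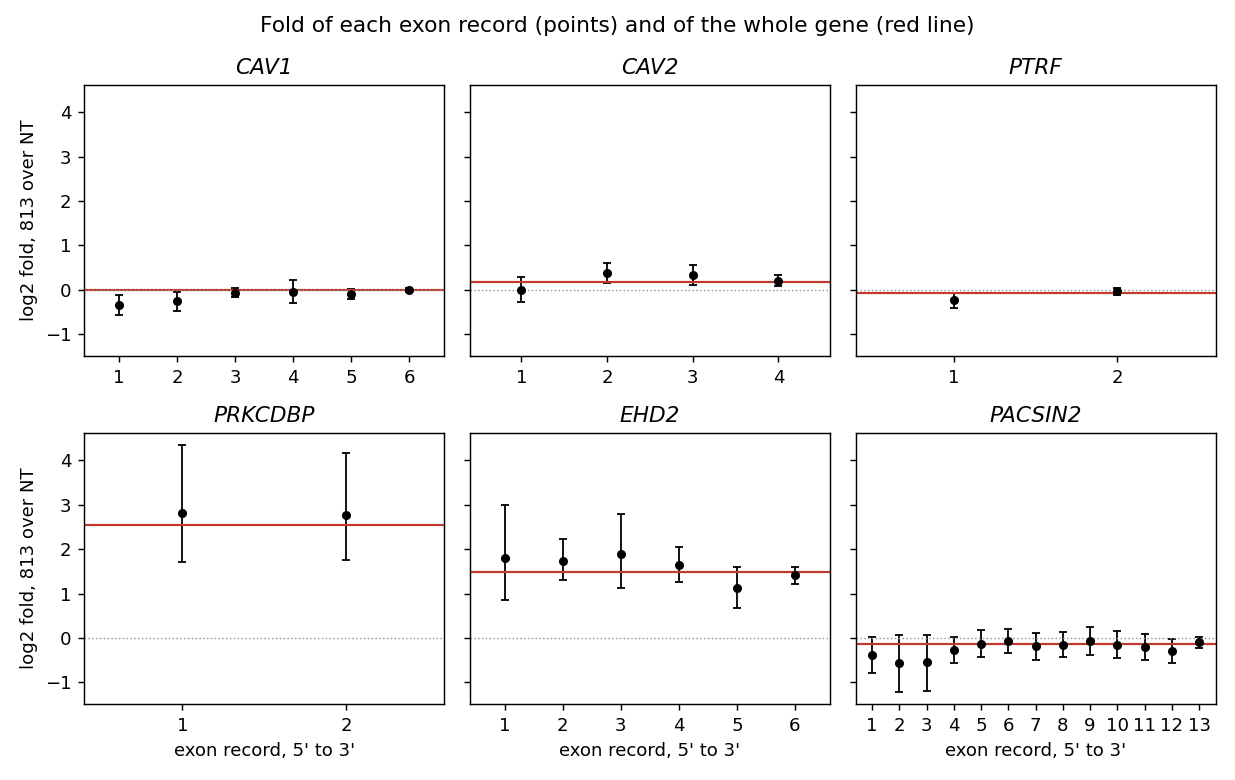
Log2 fold of the 813-titled library over the NT-titled library for each exon record with at least 50 reads, in order from 5′ to 3′, with 95% counting intervals; the red line is the whole gene and the dotted line marks 0. Each record of PRKCDBP and EHD2 is above 1, and no record of CAV1, CAV2, PTRF or PACSIN2 reaches 1 in either direction.

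The paralogs of these genes were mixed. EHD3, a relative of EHD2 that acts in endosomal recycling, was called higher with 1057 pairs in the 813-titled library and 275 in the NT-titled library, or 43.2 and 11.8 CPM and a log2 fold of 1.87 (1.67 to 2.06). EHD1 and EHD4, also endosomal, had log2 folds of -0.28 (-0.35 to -0.21) and 0.49 (0.43 to 0.55). PACSIN3 had 2730 and 3849 pairs and -0.57 (-0.64 to -0.50). EHD3 was thus the 1 called of 4 measured paralogs, where 8.13% of all measured genes were called higher and 3.48% lower. Of those not measured, MURC, the muscle cavin, had 13 and 2 pairs, PACSIN1 had 5 and 12, and CAV3, the muscle caveolin, had 0 in both libraries.

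Of 19 regulators and partners of caveolae, 17 were measured, 1 was called higher and 1 lower, with a median log2 fold of -0.31. That median was -0.17 with plain total counts and -0.09 with the GC and length trend removed, so its size is not settled. Over all measured genes 8.13% were called higher and 3.48% lower. ABL2, a tyrosine kinase related to ABL1, which acts in caveola trafficking, had 581 and 203 pairs, at a log2 fold of 1.44 (1.21 to 1.68), and its call ended at 0.91 with the GC and length trend removed. EEA1, an early endosome tether, had 20 and 49 pairs and -1.35 (-2.20 to -0.59), and its call ended at -1.21 with plain total counts and at -1.22 both without the 20 most abundant genes and with the authors' RPKM. At 0.818 and 2.11 CPM EEA1 was measured only through the NT-titled library and did not reach 5 CPM. The abundant ones were not called: FLNA, the actin crosslinker that anchors caveolae, had a log2 fold of -0.31, DNM2, the fission GTPase, -0.24, and the flotillins FLOT1 and FLOT2 -0.34 and -0.63. Of 20 signalling proteins described in caveolae, 13 were measured, 3 were called higher and 0 lower, with a median of 0.33. They were NT5E, the GPI-anchored ectonucleotidase, with 611 and 34 pairs (log2 fold 4.07, 3.59 to 4.64), TGFBR2, the type II TGF-beta receptor, with 976 and 225 pairs (2.04, 1.83 to 2.26), and BMPR1A, a type I BMP receptor, with 374 and 176 pairs (1.01, 0.75 to 1.28). The BMPR1A call ended at 0.99 with DESeq2 size factors and at 0.71 with the GC and length trend removed. With 13 measured signalling genes, nothing is read from the 3 called higher beside those shares over all measured genes.

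Clathrin coats, a separate route of uptake, gave 2 genes higher and 1 lower of 19 measured of 20, with a median of -0.05 whose sign turned to 0.09 with plain total counts and 0.27 with the GC and length trend removed. CLTC, the clathrin heavy chain, had 2034 and 705 pairs, at a log2 fold of 1.45 (1.33 to 1.58), and SNX9, which recruits dynamin, had 648 and 279 pairs and 1.14 (0.94 to 1.35). With the GC and length trend removed both calls ended, at 0.94 and 0.87. The light chains CLTA and CLTB had log2 folds of 0.10 and -0.17, and FCHO1, an early clathrin factor with an F-BAR domain, was lower with 62 and 160 pairs (-1.44, -1.89 to -1.01). Of 15 other F-BAR proteins, 11 were measured and 0 were called, with a median of 0.06. With the trend removed 1 was called lower. With plain total counts, without the 20 most abundant genes or with the authors' RPKM, 1 was called higher. Over the 5 lists together 7 genes were called higher and 2 lower of 64 measured, near the 8.13% higher and 3.48% lower over all measured genes.

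**Figure D4:**
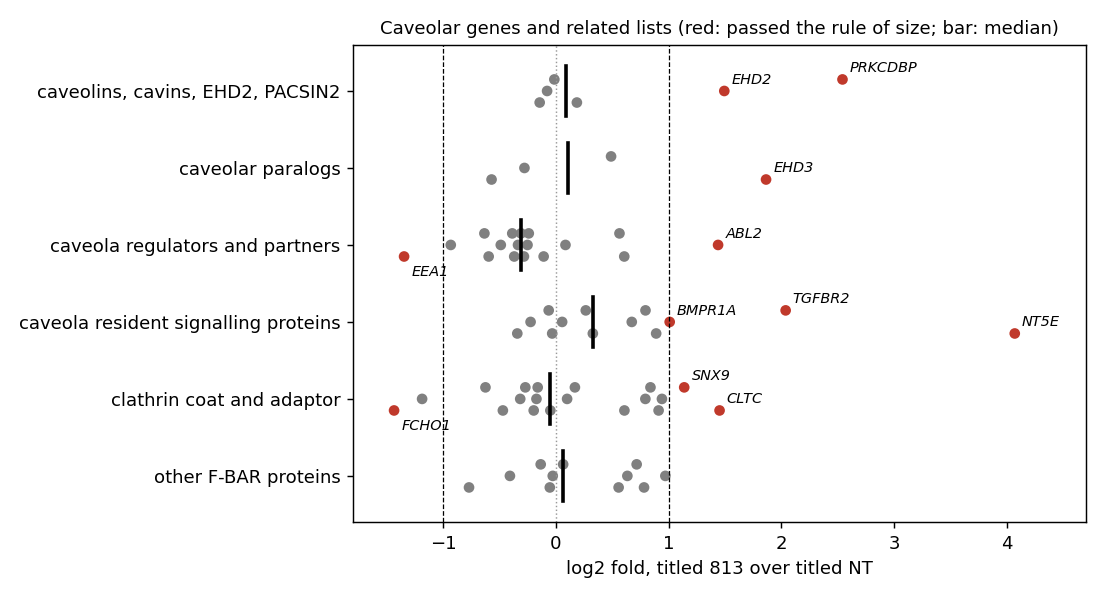
Log2 fold of the 813-titled library over the NT-titled library for the measured caveolar genes and 5 related lists, 1 point per gene; red points passed the rule of size, black bars are medians and dashed lines mark 2-fold. List medians lie between -0.31 and 0.33.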

How the data were processed

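Each library came with gene and exon tables in which the authors deposited raw counts and RPKM, per the file headers. The submitters' processing notes name CASAVA 1.9, TopHat2 2.0.6, HTSeq and hg19 without roles; the sources used here state no gene annotation, strand setting or filter. After 46 repeated rows were dropped, 23352 genes were kept. All deposited gene counts were even, so each was divided by 2 and read as pairs; exon reads were divided by 2 for folds and intervals. Library sizes were scaled with TMM (edgeR 4.0.16, R 4.3.3). Folds used a prior of 0.5 pairs, intervals were exact conditional binomial (scipy 1.17.1), and ratios between genes used a normal interval on the log scale. PCR copies are not independent molecules. No count model or p-value was used with 1 library per group. The trend on GC content and length was a generalised additive model (mgcv 1.9.3) of the log2 folds of measured genes. GC content came from GENCODE release 29 transcripts, matched for 96.6% of measured genes, and length was the gene length deposited with the counts. The model explained 15.8% of the variance.

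The genes and lists were chosen with earlier results of these data known. Named were the 7 genes, their nearest measured neighbours, all caveolar paralogs, up to 4 called genes per list and direction, and markers; FLNA, DNM2, FLOT1, FLOT2, CLTA and CLTB were added after their values were seen. Alternatives were other scalings, filters, priors, counting units and call sizes.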

Additional observations from a re-analysis of the deposited data

How the results depend on the processing

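The EHD2 call held under all 9 alternatives tried, and the PRKCDBP call under all but the 5 CPM limit, which PRKCDBP at 4.37 CPM did not reach and which left 1 of the caveolar genes called higher; 0 were called lower under any. Plain total counts, leaving the 20 most abundant genes out of the library size and the authors' RPKM shifted the median of all genes to 0.15, 0.14 and 0.14, and that of the caveolar genes to 0.22, 0.21 and 0.22. The caveolar median was 0.19 with no filter, which added SDPR, and -0.014 at 5 CPM, which dropped PRKCDBP. Under those 3 scalings the related lists had 11 genes called higher and 1 lower. Of all 12254 measured genes, 1324, 1308 and 1312 were then called higher and 303, 307 and 305 lower. Higher genes made up 81.4%, 81.0% and 81.1% of all calls, against 70.0% with TMM. With the GC and length trend removed 3 related genes were called higher and 3 lower; at 5 CPM 1 was called lower; at 1.5-fold with an interval beyond no difference 19 were higher and 8 lower, as that rule is looser. Over all genes 996 were higher and 427 lower, against 692 and 301 with the trend removed and 2428 and 1371 under the looser rule. The signs of CAV1, CAV2 and PTRF are not settled, with log2 folds from -0.30 to 0.12, -0.10 to 0.32 and -0.09 to 0.18. They turned with the library scaling, with the GC and length trend removed, or with both. Which setting is nearest to the cells was not tested. Exon departures stayed at 0 with 20 reads or 1.5-fold. SDPR, at 3 and 1 pairs, is limited by depth. No paired analysis was possible because each group has 1 library.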
